A study of Mus musculus with 10 samples.

Results

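Whole adrenal glands of 10 mice were measured on 10 Affymetrix whole-transcript arrays, and the arrays fell into those with high and those with low RNA of Clk1, a kinase that phosphorylates splicing factors. The sides were formed from the measured values: arrays on which the single Clk1 probe (10354816) read above 10.3 on the log2 scale made the high side, which held 4 of the 10 arrays, and the other 6 made the low side. The high side was KO 2, KO 5, WT 3 and WT 4, and the low side was KO 1, KO 3, KO 4, WT 1, WT 2 and WT 5. Because the arrays were selected on the measured Clk1 level, every difference between them is a description and carries no test. A gene was counted as higher or lower when no array of one side reached the values of the other and the mean difference was at least 1 on the log2 scale. Over the 19660 annotated genes other than Clk1, 1091 were higher on the high side (5.55%) and 94 were lower (0.478%).

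The 5 animals called KO carry a disrupted Crem gene, Crem-/-, and the 5 called WT do not. All 10 came from a mixed 129Pas x C57Bl/J background, were 8 weeks old, received no treatment and were killed at 0 h circadian time, when the lights came on. Each array held the RNA of a separate mouse, labelled through random hexamer primers, and all levels here are log2 values from RMA, a method that normalises and summarises the probes of a gene. The labels also place the arrays in 4 batches. Array medians lay between 7.17 and 7.25. The correlation between arrays over probes was 0.975 to 0.992 within the high side, 0.934 to 0.992 within the low side and 0.908 to 0.982 between the sides.

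Clk1 is a CDC2-like kinase of the nucleus. It phosphorylates the serine- and arginine-rich (SR) proteins that help the spliceosome to choose exons, and the splicing of Clk1 and Clk4 pre-mRNA is itself regulated, with transcripts that retain introns kept in the nucleus. Rian and Meg3 are long noncoding RNAs made from the maternal copy of the imprinted Dlk1 to Dio3 domain, whose maternal transcripts also hold snoRNAs and a large group of miRNAs. Prpf39 is a component of the U1 snRNP, and Thoc2 is a subunit of the THO complex, which couples transcription to mRNA export.

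Of the 296 miRNA genes measured, 13 were higher on the high side (4.39%, against 5.55% of all genes), and 8 of them lie in the Dlk1 to Dio3 domain on chromosome 12. Mature sequences of these 8 are given because the domain held most of the higher miRNA genes, and capitals mark the seed, bases 2 to 8, which pairs with target RNAs. Sequences are from RefSeq on GRCm38.p6, written 5′ to 3′.
miR-377-3p (chr12:109740553-109740574, plus strand): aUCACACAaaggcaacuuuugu
miR-377-5p (chr12:109740515-109740536, plus strand): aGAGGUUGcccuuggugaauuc
miR-380-3p (chr12:109711842-109711863, plus strand): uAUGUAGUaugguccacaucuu
miR-380-5p (chr12:109711806-109711827, plus strand): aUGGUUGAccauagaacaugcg
miR-300-3p (chr12:109724363-109724384, plus strand): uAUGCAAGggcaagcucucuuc
miR-300-5p (chr12:109724318-109724339, plus strand): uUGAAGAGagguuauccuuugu
miR-329-3p (chr12:109713541-109713562, plus strand): aACACACCcagcuaaccuuuuu
miR-329-5p (chr12:109713503-109713524, plus strand): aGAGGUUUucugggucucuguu
miR-487b-5p (chr12:109727347-109727367, plus strand): uGGUUAUCccuguccucuucg
miR-154-3p (chr12:109738474-109738495, plus strand): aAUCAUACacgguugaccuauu
miR-154-5p (chr12:109738438-109738459, plus strand): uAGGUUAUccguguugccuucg
miR-679-3p (chr12:109715624-109715645, plus strand): aGCAAGGUccuccucacaguag
miR-679-5p (chr12:109715587-109715608, plus strand): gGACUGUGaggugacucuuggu
miR-539-5p (chr12:109728136-109728157, plus strand): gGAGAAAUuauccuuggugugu
The 14 sequences have 14 different seeds over bases 2 to 8, so these miRNAs share a chromosomal neighbourhood and not a full seed. The seeds of miR-377-5p and miR-329-5p differ only in their last base, base 8. From elsewhere in the genome, a mature sequence of Mir103-2, Mirlet7f-1, Mir196a-1 and Mir10a is shown for contrast.
miR-103-3p (chr2:131288103-131288125, plus strand): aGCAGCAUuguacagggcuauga
let-7f-5p (chr13:48537889-48537910, minus strand): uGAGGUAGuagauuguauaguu
miR-196a-5p (chr11:96265187-96265208, plus strand): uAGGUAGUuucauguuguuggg
miR-10a-5p (chr11:96317186-96317208, plus strand): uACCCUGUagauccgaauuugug
All 22 sequences found for the counted miRNA genes had different seeds. The sources used here do not say whether the array probes read the mature miRNA, its precursor or the longer host transcript.

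The arrays separated into their sides as follows. On KO 2, KO 5, WT 3 and WT 4 Clk1 read 11.69, 12.11, 12.02 and 10.66, and on the low side it ran from 8.28 to 9.85 with a median of 8.89. WT 4 was the nearest array above the threshold and KO 1, at 9.85, the nearest below it. The side means were 11.62 ± 0.66 (SD, n = 4) and 8.97 ± 0.51 (SD, n = 6), a difference of 2.65 that became 2.97 without WT 4.

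**Figure D1:**
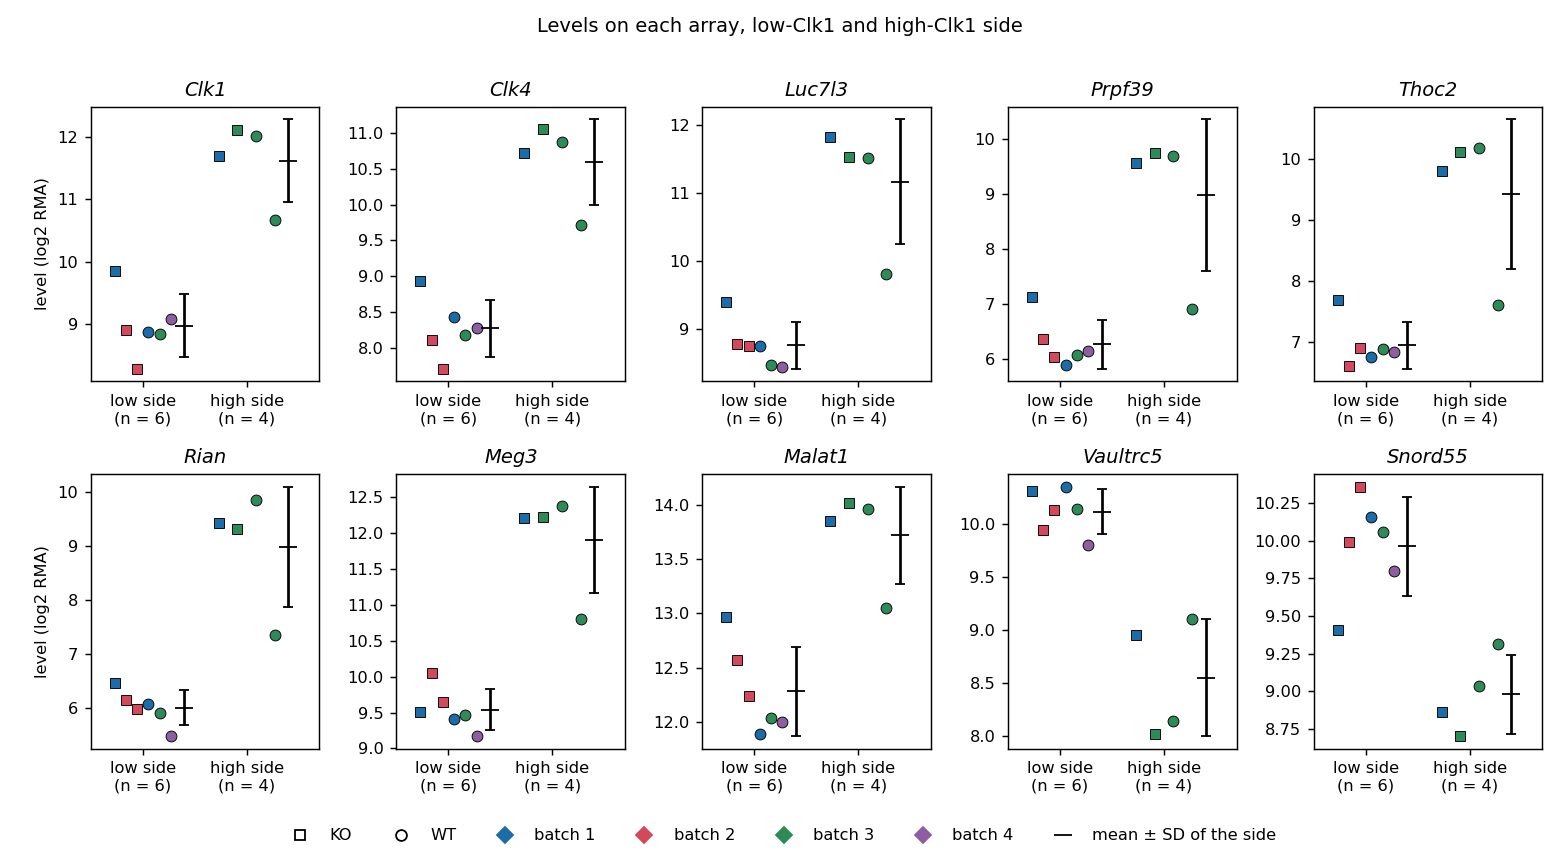
Level of 10 genes on each array (log2 RMA), low side left and high side right of each panel; squares are arrays labelled KO and circles WT, colour gives the labelled batch, and the bar is the side's mean with its SD. WT 4 is the lowest point of the high side for Clk1, Clk4, Luc7l3, Prpf39, Thoc2, Rian, Meg3 and Malat1, and for Prpf39 and Thoc2 it lies below KO 1, while Vaultrc5 and Snord55 are lower on all 4 high arrays.

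Each genotype was on both sides, with 2 of 5 KO arrays and 2 of 5 WT arrays on the high side. Batch 1 held KO 2 on the high side and KO 1 and WT 1 on the low side. Batch 3 held KO 5, WT 3 and WT 4 on the high side and WT 2 on the low side. Batches 2 and 4 held low arrays alone, so for those arrays batch and side cannot be told apart. The part of batch in the differences was not tested, and values within batches 1 and 3 are given beside them.

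Crem, the targeted gene, did not follow its labels. Its level was 7.97, 7.77, 8.14 and 7.62 over KO 2, KO 5, WT 3 and WT 4, and 7.38, 6.86, 6.84, 7.45, 7.23 and 7.27 on KO 1, KO 3, KO 4, WT 1, WT 2 and WT 5. The sides did not overlap, at 7.87 ± 0.23 (SD, n = 4) and 7.17 ± 0.26 (SD, n = 6), whereas the KO minus WT difference was -0.18 with a standard error of 0.26 (limma adjusted p = 0.999). The sources used here do not say whether the Crem probe lies in the disrupted part of the gene. KO and WT therefore name the labels of the arrays. The within-genotype difference of Crem between the sides was 0.84 over the KO arrays and 0.56 over the WT arrays.

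Among genes with sides apart, the 12 with the largest positive differences were Rbm12b2 (3.19), Rian (2.97), Cfap36 (2.69), 9530091C08Rik (2.65), Vbp1 (2.58), Ube2v2 (2.56), Cops2 (2.51), Mob4 (2.51), Ikzf5 (2.48), Purb (2.44), Zfp654 (2.41) and Luc7l3 (2.40). Rbm12b2, an RNA-binding protein gene, read 9.59, 9.88, 9.85 and 8.06 on KO 2, KO 5, WT 3 and WT 4, against 5.82 to 7.20 on the low side with a median of 5.95. WT 4 was thus the lowest of the high arrays and KO 1 the highest of the low ones, and the difference was 3.07 within batch 1 and 3.44 within batch 3. Mob4, a member of the STRIPAK phosphatase complex, differed in that WT 4 stood with its side: it read 12.26, 12.06, 12.18 and 11.92 on the high arrays and 9.05 to 10.48 with a median of 9.47 on the low ones. Among the others are the prefoldin subunit Vbp1, the ubiquitin-conjugating enzyme variant Ube2v2, the COP9 signalosome subunit Cops2, the Ikaros-family zinc finger Ikzf5 and the purine-rich element binding protein Purb.

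Differences of this size ran in the same direction for most genes. Of the counted genes 92.1% were higher on the high side, although the median difference of all 19660 genes was -0.12. A difference of at least 1.5 was held by 350 higher and 3 lower genes, one of at least 2 by 67 higher and 0 lower genes, and one of at least 2.5 by 8 higher genes. Without the size condition, 2426 genes had sides apart with the high side above (12.3%) and 2578 with the high side below (13.1%), so the imbalance lay in the size of the differences rather than in how many genes separated the sides.

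WT 4 lay between the sides. With 0 set at the mean of the low arrays other than KO 1 and 100 at the mean of KO 2, KO 5 and WT 3, WT 4 stood at a median of 63.6% of the way over the 1091 higher genes, with quartiles of 44.1% and 80.2%. A gene was counted only if WT 4 lay beyond every low array. Genes in which it fell among them are therefore left out, which moves its position toward the high side. KO 1 stood at 16.4% and WT 5 at 10.2%, and the other low arrays lay from -11.5% on KO 3 to 4.32% on WT 1. Without WT 4, 1581 genes were higher (8.04%) and 167 lower (0.849%), among them 1084 of the 1091 and 93 of the 94. Over the 94 lower genes the order was different: KO 1 and KO 3 stood at -56.2% and -60.1%, beyond the other low arrays, and WT 4 at 76.7%.

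**Figure D2:**
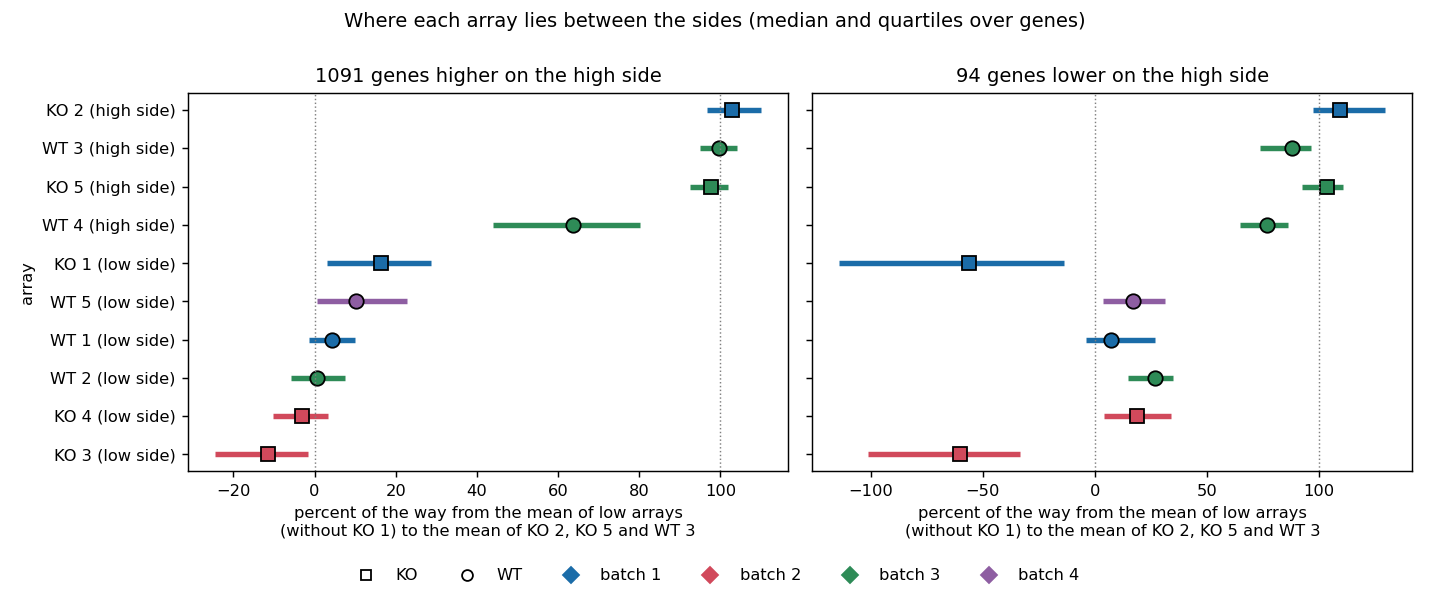
Position of each array between the sides, in percent of the way from the mean of the low arrays without KO 1 (0) to the mean of KO 2, KO 5 and WT 3 (100); symbols are medians and bars quartiles over the 1091 higher genes (left) and the 94 lower genes (right). WT 4 lies at 63.6% on the left, and KO 1 and KO 3 lie at -56.2% and -60.1% on the right.

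The differences of the higher genes were present within each genotype and each batch that held both sides, which their choice as genes with sides apart fixes in sign but not in size. Their median difference was 1.32 over all arrays, 1.53 within KO, 1.14 within WT (1.43 without WT 4), 1.43 within batch 1 and 1.30 within batch 3. For the lower genes the median was -1.12 over all arrays, -1.59 within KO, -0.66 within WT, -1.50 within batch 1 and -0.68 within batch 3. Taken by themselves, the KO arrays gave 1818 higher (9.25%) and 607 lower genes (3.09%), and the WT arrays 927 (4.72%) and 32 (0.163%). Within batch 1 there were 1652 higher (8.4%) and 809 lower genes (4.11%), and within batch 3 there were 1249 (6.35%) and 100 (0.509%).

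Many splicing factors and some of their kinases were higher. For comparison, the share of higher genes was 5.55% over all genes and 8.65% over the 11438 protein-coding genes with a mean level of at least 7. Of the 12 other CLK, DYRK and SR protein kinases, 3 were higher and 0 lower (median 0.51). Clk4, the closest relative of Clk1, read 10.73, 11.05, 10.88 and 9.72 on KO 2, KO 5, WT 3 and WT 4 and 7.71 to 8.93 on the low side, with a median of 8.22. Every high array was above every low array, and the difference was 2.33, or 2.05 within batch 1 and 2.38 within batch 3. Clk3 did not share this pattern: its side means were 9.56 ± 0.05 (SD, n = 4) and 9.74 ± 0.09 (SD, n = 6), and the sides overlapped. Clk2 shares its probe with another gene and is not given. The other higher kinases were Prpf4b (2.07), which acts on the spliceosome, and the SR protein kinase Srpk2 (1.36).

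Among SR proteins and their relatives 14 of 27 were higher and 0 lower, 26 had a difference above 0, and the median was 1.12. Luc7l3, a U1-associated SR-like protein, read 11.83, 11.52, 11.51 and 9.81 on KO 2, KO 5, WT 3 and WT 4, against 8.45 to 9.40 with a median of 8.75 on the low side. Rsrc2 (2.25), Srek1 (1.84), Luc7l2 (1.81) and Srsf1 (1.47) were also higher. The exception below 0 was Srsf9, at -0.45 with overlapping sides. Of RNA-binding splicing regulators 12 of 35 were higher, 33 had a difference above 0 and the median was 0.96, led by Rbm39 (2.17), the nuclear matrix protein Matr3 (2.08), Tia1 (2.02) and Rbm26 (1.98).

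The hnRNP proteins, which coat nascent RNA, were divided. Of 20, 10 were higher, with Syncrip at 2.05, Ptbp2 at 1.75, Hnrnpdl at 1.62 and Hnrnpa2b1 at 1.57, and the median was 0.97. The paralogs Ptbp1 and Ptbp2 differed from each other. Ptbp2 had side means of 10.08 ± 0.60 (SD, n = 4) and 8.33 ± 0.15 (SD, n = 6), while Ptbp1 was at 10.26 ± 0.17 and 10.78 ± 0.12, with its sides apart and the high side lower.

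The machinery that carries out splicing held a raised share of higher genes, while its median was below 0. Of 61 core spliceosome genes 10 were higher (16.4%, against 5.55% of all genes and 8.65% of brighter protein-coding genes). A difference above 0 was held by 22 of the 61, and by 6407 of all 18311 protein-coding genes. The median of the list was -0.22, below that of all genes. Those that were higher included the branch-site factor Sf3b1 (1.80), U2surp (1.57) and the helicase Ddx46 (1.45). Prpf39 read 9.57, 9.74, 9.69 and 6.91 on KO 2, KO 5, WT 3 and WT 4, and 5.88 to 7.12 with a median of 6.11 on the low arrays. It was not counted, because KO 1 was above WT 4, although its difference was 2.71 and, without WT 4, 3.40.

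Export and 3′ end factors were mixed in the same way. Thoc2 read 9.79, 10.11, 10.18 and 7.61 on KO 2, KO 5, WT 3 and WT 4, and 6.61 to 7.69 with a median of 6.86 on the low arrays. WT 4 and KO 1 again overlapped, and the difference of 2.48 became 3.08 without WT 4. Its partners in the THO complex Thoc1 (1.81) and Thoc7 (1.05) were the 2 higher genes among 21 of THO, TREX and mRNA export (median 0.06), whereas the adaptor Alyref was at -0.63 with the high side lower on every array. Of 29 cleavage, polyadenylation and nuclear decay genes 5 were higher (median 0.26), among them the nuclear exosome helicase Mtrex (1.51) and the poly(A) polymerase Papola (1.50), while Pcf11 (1.86) and Zfc3h1 (1.68) overlapped. Of 10 nonsense-mediated decay genes only the kinase Smg1 was higher (1.40), and the median was -0.30. The share of higher genes in the export list, 9.52%, was near the 8.65% of brighter protein-coding genes. In the cleavage, polyadenylation and nuclear decay list it was 17.2%, above that of brighter genes and the 5.55% of all genes. The share in the nonsense-mediated decay list rested on Smg1 alone.

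**Figure D3:**
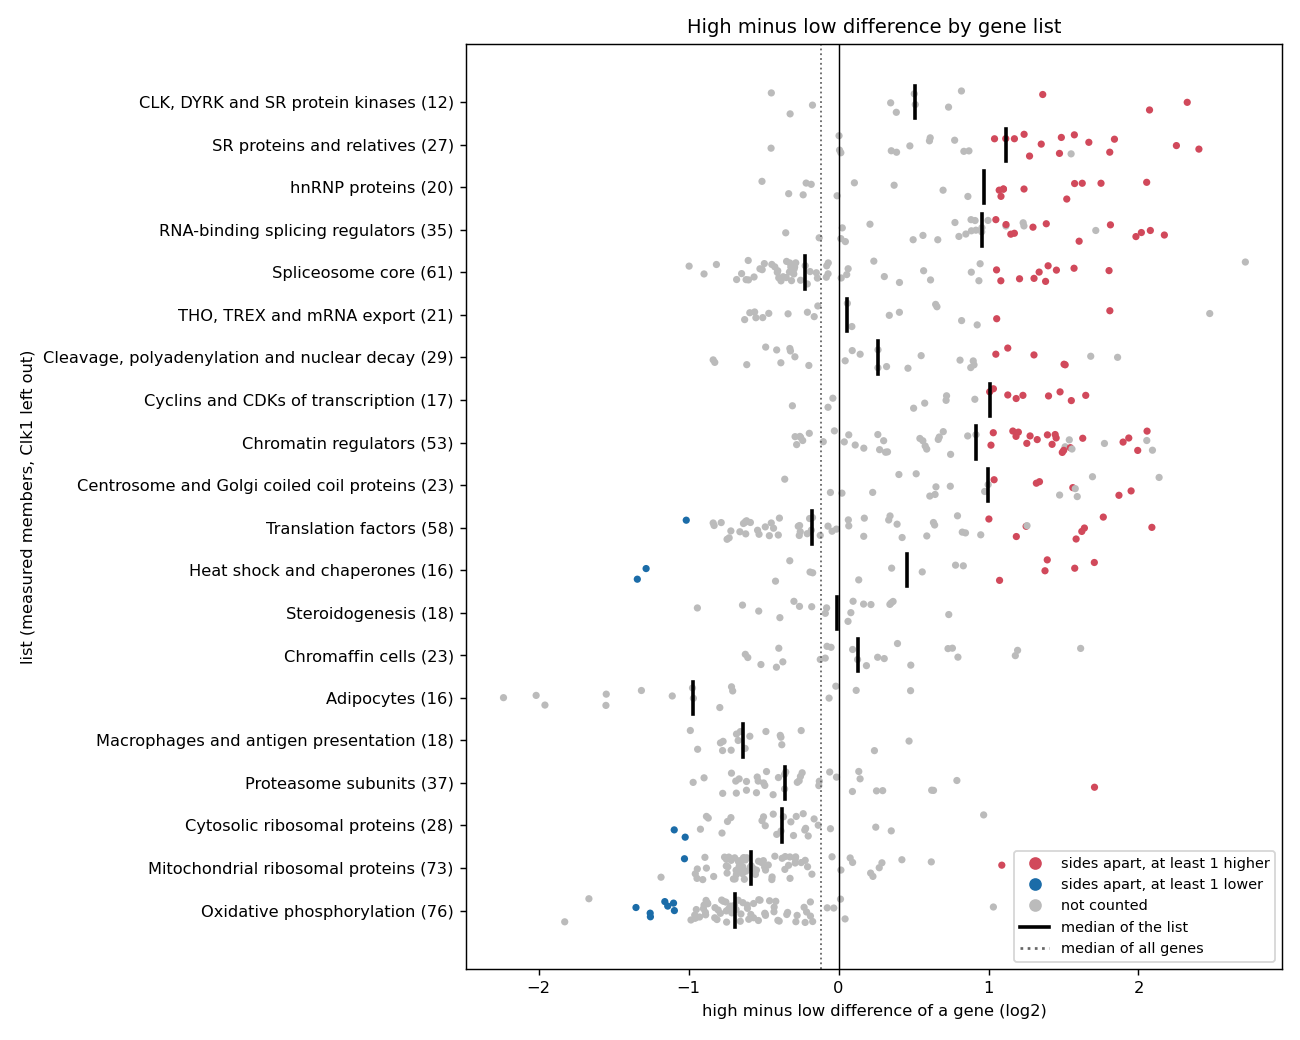
High minus low difference of each gene (log2, horizontal axis) by gene list (rows, measured members in brackets); red points are genes with sides apart and at least 1 higher, blue at least 1 lower, grey not counted, black bars are list medians and the dotted line is the median of all genes. SR proteins lie around a median of 1.12 and oxidative phosphorylation genes around -0.69.

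Regulators of transcription and chromatin also included many higher genes. Of 17 cyclins and cyclin-dependent kinases of transcription 9 were higher (median 1.01), including Ccnl1 (1.65), a cyclin linked to splicing, the Mediator kinase Cdk8 (1.55) with its cyclin Ccnc (1.48), and Ccnt2 (1.40). Cdk9, the partner of Ccnt2 in P-TEFb, was at -0.31 with overlapping sides. Of 53 chromatin regulators 20 were higher, 45 had a difference above 0 and the median was 0.92. Smarca5, an ISWI remodeller, was at 10.49 ± 0.77 (SD, n = 4) against 8.43 ± 0.42 (SD, n = 6), the DNA demethylase Tet2 at 8.44 ± 0.68 against 6.44 ± 0.16, and the histone methyltransferase Setd2 at 9.68 ± 0.76 against 7.74 ± 0.42. Atrx (2.09) and Arid4b (2.06) had sides that overlapped.

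Of 411 zinc finger protein genes 53 were higher and 0 lower (12.9%), and 276 had a difference above 0 (median 0.31). Of 23 coiled coil proteins of the centrosome and Golgi 6 were higher (median 1.00), led by the centriolar satellite protein Pcm1 (1.95) and the scaffold Akap9 (1.87), and Rock1 (2.14) and Eea1 (1.69) overlapped. Of 58 translation factors 8 were higher and 1 lower (median -0.18), with the eIF2 subunit genes Eif2s3y (2.09) and Eif2s2 (1.77) and with Eif5 (1.62) on the higher side. None of 44 collagen genes (median -0.19) or 41 core histone genes (median -0.38) was counted, lists in which the 5.55% of all genes would give few. The 1024 olfactory receptor genes (median -0.04) also gave 0, at a median level of 4.88. The part of the low level in this count was not tested.

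Several lists relevant to the adrenal gland and to Crem did not separate the sides by their mean level. Of 18 steroidogenesis genes, which mark the adrenal cortex, 0 were counted (median -0.01), and the median level of the list over all arrays was 11.82. With 5.55% of all genes higher, 0 of 18 is near the background, so nothing is read from it. Star, which carries cholesterol into mitochondria, was at 14.01 ± 0.08 (SD, n = 4) and 13.67 ± 0.28 (SD, n = 6), with overlapping sides. Of 19 core clock and output genes 3 were higher (15.8%), namely Clock (1.87) and the nuclear receptor genes Rora (1.22) and Nr1d2 (1.11). The repressor Cry2 (-0.84) had all high arrays below all low arrays, and the list's median was -0.20. Of 18 genes of the CREB family and its coactivators 2 were higher (11.1%), Atf2 (1.06) and Atf1 (1.06), while Creb1 (0.96) overlapped and the median was -0.21. The shares of the clock and CREB lists were above the 5.55% of all genes and the 8.65% of brighter protein-coding genes, but rested on 3 and 2 genes. Among 29 immediate early genes Klf6 alone was higher (1.13), a share of 3.45%, and the median was -0.27.

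Heat shock proteins and chaperones went both ways, with 5 of 16 higher and 2 lower. The co-chaperones Dnaja1 (1.71) and Dnajb4 (1.57), the mitochondrial chaperonin Hspd1 (1.39) and the Hsp110 relatives Hspa4l (1.38) and Hspa4 (1.07) were higher. The small heat shock proteins Hspb8 and Cryab were lower, at -1.34 and -1.28, and without KO 1 and KO 3 at -1.23 and -0.81.

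Long noncoding RNAs held some of the largest differences but were not higher as a class. Of 666 lncRNA genes 13 were higher and 1 lower (1.95% higher, against 5.77% of 18311 protein-coding genes). The median level was 6.41 over lncRNA genes and 7.69 over protein-coding genes, and the part of the level in these shares was not tested. The lower gene was Vaultrc5, a vault RNA that RefSeq places in this class. Rian read 9.43, 9.32, 9.84 and 7.35 on KO 2, KO 5, WT 3 and WT 4, against 5.49 to 6.46 with a median of 6.04 on the low side. The sides were apart even at WT 4, and the difference of 2.97 was 3.15 within batch 1 and 2.92 within batch 3. Meg3 read 12.21, 12.22, 12.38 and 10.80 on the high arrays and 9.17 to 10.04 with a median of 9.49 on the low arrays, a difference of 2.36 with WT 4 again lowest of its side.

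Other nuclear lncRNAs were counted as well. Malat1, which is retained in nuclear speckles where splicing factors are stored, read 13.85, 14.01, 13.96 and 13.05 on KO 2, KO 5, WT 3 and WT 4 and 11.89 to 12.96 with a median of 12.14 on the low side. KO 1, at 12.96, came closest to WT 4 without reaching it, and the difference was 1.43. Tug1 (2.02), Lncpint (1.43) and Firre (1.31) were higher, as was 9530091C08Rik (2.65), which has no known role and read 7.80 on WT 4 against at least 9.87 on the other high arrays and at most 7.01 on the low ones.

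In the Dlk1 to Dio3 domain the counted genes were all noncoding. Both lncRNA genes measured there, Rian and Meg3, and both snoRNA genes were higher, as were 8 of 40 miRNA genes, whereas 0 of the 3 protein-coding genes were: Dlk1 was at -0.16, Rtl1 at -0.10 and Dio3 at -0.41. Dlk1 read 8.61 on KO 1 and 11.05 to 12.58 on all other arrays, and without KO 1 and KO 3 the differences of Dlk1, Rtl1 and Dio3 were -0.75, -0.27 and -0.46. These protein-coding genes are expressed from the paternal copy and the RNA genes from the maternal copy. In the rest of the genome 11 of 664 lncRNA genes (1.66%), 2 of 45 snoRNA genes and 5 of 256 miRNA genes (1.95%) were higher. Of protein-coding genes there, 1057 of 18308 (5.77%) were higher. At that share 0 of 3 is near the background, so nothing is read from it. Of the domain's miRNA genes 36 of 40 had a difference above 0, with a range from -0.45 to 2.07 and a median of 0.64, against a median of 0.05 over the 256 elsewhere. Without WT 4, 12 of the 40 were higher.

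**Figure D4:**
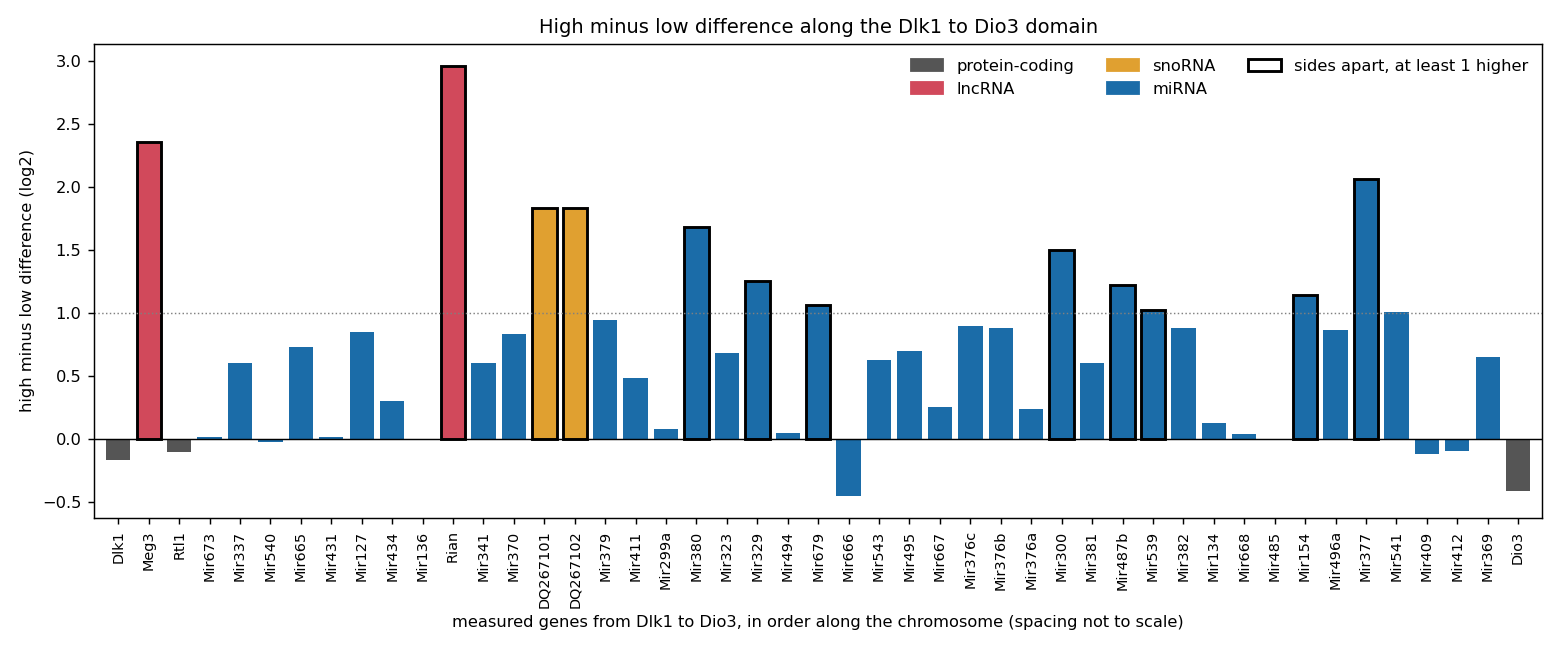
High minus low difference (log2) of the 47 measured genes from Dlk1 to Dio3 in their order along the chromosome, with spacing not to scale; colours mark the gene class and outlined bars are genes with sides apart and at least 1 higher. The lncRNA genes Meg3 and Rian stand highest. The snoRNA genes lie at 1.83 and 1.84, the miRNA genes range from -0.45 to 2.07, and Dlk1, Rtl1 and Dio3 lie below 0.

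Mir377 read 7.48, 7.47, 8.16 and 6.76 on KO 2, KO 5, WT 3 and WT 4, and 4.78 to 5.92 with a median of 5.30 on the low arrays. All 4 high arrays were above all 6 low arrays, and the difference was 2.07, or 1.86 within batch 1 and 1.55 within batch 3. Next came Mir380 (1.68), Mir300 (1.50), Mir329 (1.25), Mir487b (1.22), Mir154 (1.14), Mir679 (1.07) and Mir539 (1.03). The within-batch values of Mir380 were unequal, at 2.26 in batch 1 and 0.76 in batch 3.

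Outside the domain, Mir103-2 read 7.74, 7.90, 8.00 and 6.86 on the high arrays and 5.10 to 6.12 with a median of 5.32 on the low arrays. Its difference of 2.16 stood against 0.20 for Pank2, the gene whose span contains it. Mirlet7f-1 (1.81), Mir196a-1 (1.68), Mir694 (1.43) and Mir10a (1.23) completed the 13. For Mir10a the high side was uneven, at 6.95, 6.05, 5.17 and 5.26 over KO 2, KO 5, WT 3 and WT 4, and its difference was 0.51 within batch 3.

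There were 18 miRNA genes within the RefSeq spans of 11 higher genes, without regard to strand, and 0 of the 18 were counted. Their median difference was 0.15. That of the hosts was 1.59, but the hosts were chosen for a large difference and the miRNA genes were not, so nothing is read from the gap. Mir186 was at 0.81 within Zranb2, a splicing factor gene at 2.32, and Mir370 and Mir341 were at 0.83 and 0.60 within Rian. Over 121 miRNA genes in genes that were not higher, 3 were counted and the median was 0.10.

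Of 47 snoRNA genes 4 were higher and 0 lower (8.51%), and the median of the class was -0.27. DQ267102, a snoRNA gene within Rian, read 10.02, 9.88, 10.40 and 8.49 on KO 2, KO 5, WT 3 and WT 4 and 7.55 to 8.08 with a median of 7.91 on the low arrays. The sides were apart, and its neighbour DQ267101 (1.83) behaved alike, with a high side of 7.58, 7.37, 7.91 and 5.98 in the same order. The other 2 were Snora75 (1.75), within the nucleolin gene Ncl (1.88), and Snora20 (1.07), within Tcp1 (0.02). Snord82, also within Ncl, was at -0.16, and Snora23, within Ipo7 (1.52), was at -0.38.

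Some short RNAs were lower on the high side. Vaultrc5, a vault RNA made by RNA polymerase III, read 8.95, 8.02, 8.14 and 9.10 on KO 2, KO 5, WT 3 and WT 4 and 9.80 to 10.35 with a median of 10.14 on the low arrays. It was lower on every high array, and the difference was -1.56, with or without KO 1 and KO 3. Rny1, a Y RNA of the Ro particle, read 8.66, 8.46, 8.11 and 8.84 against 9.04 to 10.28 with a median of 10.05, a difference of -1.37. Snord55, a guide for ribosomal RNA methylation, read 8.86, 8.70, 9.04 and 9.31 on KO 2, KO 5, WT 3 and WT 4 against 9.41 to 10.36, and its difference of -0.98 with sides apart fell just short of being counted. Snord22 (-0.97) and Snora52 (-0.94) were similar. All 6 snRNA genes (median -0.57) had overlapping sides, and 0 were counted. With 0.478% of all genes lower, 0 of 6 is near the background, so nothing is read from it.

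Among genes with sides apart, the 12 with the largest negative differences were Reep6 (-1.58), Vaultrc5 (-1.56), Fetub (-1.51), Tmem120a (-1.44), Inmt (-1.43), Gpx3 (-1.43), Gnmt (-1.40), Rny1 (-1.37), Uqcr11 (-1.35), Rarres2 (-1.35), Hspb8 (-1.34) and Agt (-1.33). Several of these are made mainly by liver or fat, and the arrays KO 1 and KO 3 of the low side carried transcripts of those tissues. Over 16 adipocyte genes the mean level reached 12.09 on KO 1 and 11.78 on KO 3, where the other low arrays ranged from 7.94 to 10.23 and the high arrays from 8.51 to 9.95. Over 14 liver and pancreas genes it reached 10.19 on KO 1 and 7.99 on KO 3, where the other low arrays ranged from 6.48 to 7.03 and the high arrays from 6.22 to 7.32. In whole glands, fewer cells of a type and less RNA per cell cannot be told apart.

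Leaving out KO 1 and KO 3 reduced the lower genes to 48 (0.244%), of which 20 were among the 94, and kept 970 of the 1091 higher genes within 1193 (6.07%). The differences of Reep6, Fetub, Gnmt and Agt became -0.80, -0.79, -0.55 and -0.61. The medians of the adipocyte and of the liver and pancreas list went from -0.97 to -0.05 and from -1.18 to -0.16, with 0 genes counted in either list in the comparison of all arrays. Then the largest negative differences with sides apart, picked after their values were seen, were those of Vaultrc5 (-1.56), the prostacyclin synthase Ptgis (-1.51), Rny1 (-1.34), the complex III assembly factor Uqcc2 (-1.23), Eola1 (-1.23) and Hspb8 (-1.23). KO 1 was also low in chromaffin cell transcripts, with a mean over 23 genes of 7.65 against 9.77 to 10.59 on all other arrays, and 0 of the 23 were counted (median 0.13, and -0.33 without KO 1 and KO 3).

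Genes of oxidative phosphorylation were lower together, by modest amounts. Of 76, 73 had a difference below 0, where 6407 of all 18311 protein-coding genes had one above 0. Of the list 7 were counted as lower (9.21%, against 0.478% of all genes) and 0 as higher, and the median was -0.69. Within KO 28 were lower (3.09% of all genes) and within WT 1 (0.163% of all genes), with medians of -0.85 and -0.47. The list's median was -0.76 within batch 1 and -0.40 within batch 3. The list mean lay between 10.32 and 10.51 on the high arrays and between 10.77 and 11.50 on the low arrays, with KO 3 highest. Uqcr11, a small subunit of complex III, read 8.69, 8.93, 8.87 and 9.18 on KO 2, KO 5, WT 3 and WT 4 and 9.85 to 11.09 with a median of 10.17 on the low arrays. No array crossed over, and the difference was -1.35, or -1.13 without KO 1 and KO 3. The whole list then had a median of -0.54, with 2 genes lower and 1 higher.

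Ribosomal protein and proteasome lists had negative medians. They were -0.58 over 73 mitochondrial ribosomal proteins (1 higher and 1 lower), -0.38 over 28 cytosolic ribosomal proteins (2 lower, Rps21 at -1.10 and Rpl10l at -1.02) and -0.36 over 37 proteasome subunits, of which the ATPase Psmc6 was higher (1.71). Macrophage and antigen presentation genes had a median of -0.64 over 18, and 0 were counted. Their mean lay between 8.73 and 9.25 on the high arrays and between 9.39 and 9.83 on the low arrays. Whether a different share of these cells moved with the Clk1 state was not tested.

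Higher and lower genes differed in genomic span, counted from the first to the last annotated base. The median span was 44.4 kb for the 1057 higher and 10.8 kb for the 90 lower protein-coding genes, against 19.4 kb for all 18311 protein-coding genes. It was 23.7 kb for all protein-coding genes with a mean level of at least 7, which include 989 of the higher and 88 of the lower genes. Only 20 of all 94 lower genes stayed counted without KO 1 and KO 3, and the median span was not recomputed without those arrays. In that brighter group, the median difference was -0.43 for genes up to 3 kb, -0.38 from 3 to 10 kb, -0.24 from 10 to 30 kb, 0.08 from 30 to 100 kb, 0.22 from 100 to 300 kb and 0.17 above 300 kb. The share of higher genes was 1.08% in the shortest class and 14.9% between 30 and 100 kb, and that of lower genes went from 3.09% in the shortest class to 0% above 100 kb. The share of higher genes did not keep growing with span, at 12.7% from 100 to 300 kb and 8.74% above 300 kb. Without KO 1 and KO 3 the median difference was -0.44 up to 3 kb and 0.16 from 100 to 300 kb.

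**Figure D5:**
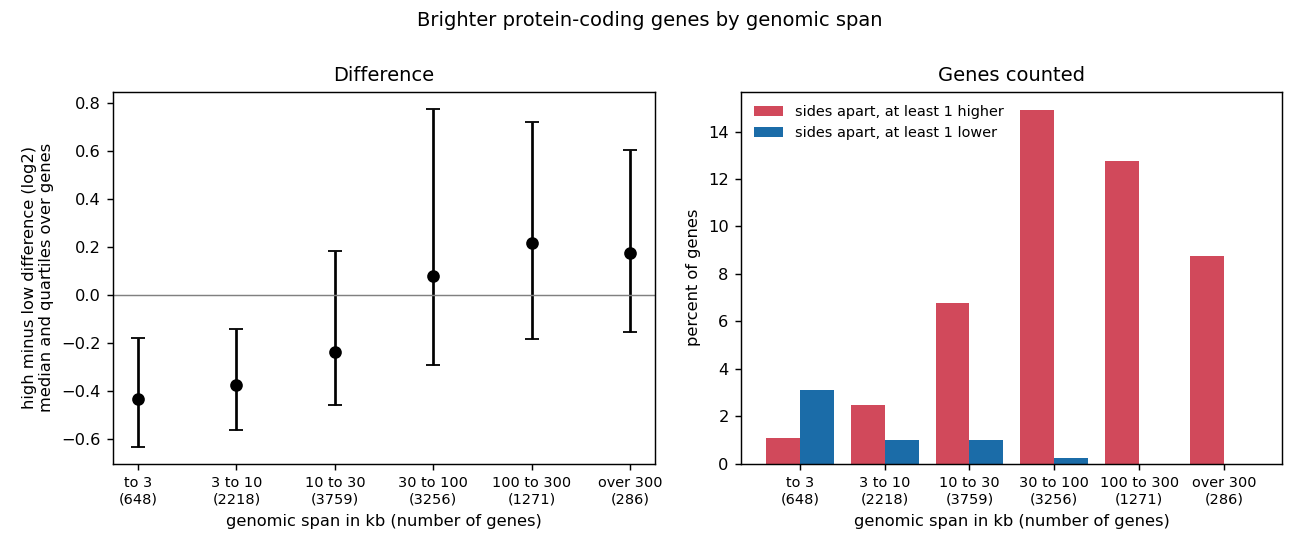
Brighter protein-coding genes in 6 classes of genomic span (kb, horizontal axis, number of genes in brackets): median and quartiles of the high minus low difference (left, log2) and percent of genes with sides apart and at least 1 higher or lower (right). The median passes from -0.43 in the shortest class to 0.22 between 100 and 300 kb.

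Promoters were searched for motifs in RefSeq windows of 300 bases around the transcript start, on both strands, for 860 higher and 76 lower protein-coding genes, with 9267 brighter protein-coding genes for comparison. The cAMP response element TGACGTCA, which CREM and its relatives bind, was in 3.95% of promoters of higher genes, 2.63% of those of lower genes and 3.51% of those of brighter genes. Its core TGACG, which overlaps the full element, was in 41.3% of the promoters of higher genes, in 19 of the 76 of lower genes and in 35.1% of those of brighter genes. The CGCG element CTCGCGAG was in 5.70% of promoters of higher genes (49 genes), 2.63% of those of lower genes and 2.02% of those of brighter genes. The ETS motif CCGGAAGT was in 10.5% against 8.56%, the GC box GGGCGG in 71.2% against 69.7%, and TATAAA in 7.44% of promoters of higher, 17.1% of lower and 8.63% of brighter genes. The median GC content was 62.3%, 58.8% and 61.3%. Only 20 of all 94 lower genes stayed counted without KO 1 and KO 3, and the motif shares were not recomputed without those arrays.

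The windows of Clk4 and Meg3 are given because both hold the cAMP response element, and that of Rbm39, a splicing regulator described above, because it holds CTCGCGAG. Meg3 and Rbm39 each have a further start in the RefSeq table, at chr12:109545148-109545447 and chr2:156179531-156179830, whose window holds neither element. Capitals mark the element. A match describes the letters and is not a binding site.
Clk4 (GRCm38.p6, chr11:51262864-51263163, plus strand): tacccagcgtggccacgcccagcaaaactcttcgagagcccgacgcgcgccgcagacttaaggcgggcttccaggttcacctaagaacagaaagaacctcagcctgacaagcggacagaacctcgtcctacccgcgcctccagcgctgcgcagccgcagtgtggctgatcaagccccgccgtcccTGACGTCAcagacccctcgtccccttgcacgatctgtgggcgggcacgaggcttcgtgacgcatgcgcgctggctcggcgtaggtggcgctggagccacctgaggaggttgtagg
Meg3 (GRCm38.p6, chr12:109540746-109541045, plus strand): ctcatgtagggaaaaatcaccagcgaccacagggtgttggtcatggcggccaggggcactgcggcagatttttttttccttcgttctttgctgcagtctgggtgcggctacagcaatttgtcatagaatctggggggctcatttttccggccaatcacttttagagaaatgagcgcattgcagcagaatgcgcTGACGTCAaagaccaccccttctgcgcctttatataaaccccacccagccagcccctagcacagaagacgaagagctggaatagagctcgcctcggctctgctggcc
Rbm39 (GRCm38.p6, chr2:156180189-156180488, minus strand): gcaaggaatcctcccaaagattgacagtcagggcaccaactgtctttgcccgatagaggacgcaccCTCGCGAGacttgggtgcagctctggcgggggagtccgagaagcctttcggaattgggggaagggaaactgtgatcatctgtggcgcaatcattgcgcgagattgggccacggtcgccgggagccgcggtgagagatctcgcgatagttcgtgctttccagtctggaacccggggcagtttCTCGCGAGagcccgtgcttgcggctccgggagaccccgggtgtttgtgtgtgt

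Genotype was compared over all probes, since the labels did not enter the choice of sides. A fit without the side counts the gap between the sides as spread between mice, which widens the error of genes that differ between them. In limma, 0 of 25664 probes (0%) differed between KO and WT at an adjusted p under 0.05. An unadjusted p under 0.05 was held by 878 probes, and the smallest adjusted p was 0.999. Rian differed by 0.53 with a standard error of 0.97 and Clk1 by 0.27 with a standard error of 0.86 (limma adjusted p = 0.999 for both). With the side as a covariate 0 probes were called and the smallest adjusted p was 0.228.

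Whether the difference between the sides itself differed between genotypes was tested with an interaction term, in sides formed from the same arrays. In limma, 0 of 25664 probes (0%) were called and 1648 had an unadjusted p under 0.05, with a smallest adjusted p of 0.665. Without KO 4 the test called 147 probes (10 with a more positive and 137 with a more negative difference in KO), and without WT 3 it called 11.

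The threshold did not use the order of the arrays within the low side, and the relation of the 3 marker genes to Clk1 was tested over its 6 arrays. These genes were picked with results of the same arrays known, so the tests are not independent support. Pearson's r with Clk1 was 0.84 for Prpf39 (two-sided exact permutation p = 0.106, adjusted over the 3 genes 0.317), 0.74 for Thoc2 (0.272, adjusted 0.406) and 0.43 for Rian (0.406, adjusted 0.406). Spearman's rho was 0.77, 0.03 and 0.37 (exact permutation p = 0.103, 1 and 0.497, adjusted 0.308, 1 and 0.746). Leaving out KO 1 and KO 4, the arrays farthest from the median of Clk1, r became 0.21, 0.15 and -0.84, so the relations rested on those arrays. Across genes, which are not independent, 81.4% of the higher genes and 80.9% of the lower genes had an r with Clk1 above 0 on the low arrays, against 40.0% of all genes. Without KO 1 the shares were 68.4%, 75.5% and 44.8%. The higher and lower genes were chosen on values that include the low arrays, so the shares are a description and carry no test. The genes with sides apart that had the highest r over these 6 arrays were Ice2 (0.99), Asnsd1 (0.99), Pdlim5 (0.98), Vezt (0.98) and Tlr3 (0.98). Genes with overlapping sides were not ranked. Clk4 had 0.95.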

How the data were processed

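The 10 arrays were those of 5 mice labelled KO and 5 labelled WT. The deposited values are log2 levels per probe, which the authors made with RMA per the submitters' processing notes; the sources used here do not name its software, its version or any adjustment for batches. Of 35557 deposited rows 25689 held values on all arrays, 25 control probes were left out and 25664 were tested. GEO's platform annotation pairs 20777 of these with a single symbol, 232 with more than that and leaves 4655 unnamed. Where several probes named the same gene alone, the brightest on average was used, which gave 19661 genes with Clk1, of which 19584 matched RefSeq on GRCm38.p6, used for classes, spans, promoters and miRNA sequences. The arrays give no depth, and their number limits the precision.

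The sides came from the measured Clk1 level, so differences between them were described by means, SDs and overlap. The members, motifs and gene lists were chosen with earlier results of these data known. Of the 41 lists, which held 2871 measured genes with 191 higher and 17 lower, those not given in the report added no named gene. Genotype and its interaction with side were tested with limma 3.58.1 in R 4.3.3 (two-sided, Benjamini-Hochberg over 25664 probes, threshold 0.05), and relations over the low arrays with exact permutation in scipy 1.17.1. The steps were tested on simulated data. Mouse numbers in the labels were taken as separate animals.

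Named were Clk1, Rian, Prpf39, Thoc2, Crem, the CLK kinases, the 12 largest differences in each direction and the 8 and 4 largest of noncoding RNA genes among genes with sides apart and the same sign in both genotypes, and up to 4 members of a list by size. The 5 genes most like Clk1, by r over the low arrays among genes with sides apart, were named as well. Other genes were named after their values were seen. Alternatives were other normalisations, brighter genes, batches, genotypes, other sizes and leaving out arrays. Figures were drawn with matplotlib 3.10.9.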

Additional observations from a re-analysis of the deposited data

Results flagged for a closer look

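Of 88 groups tested for an array far from the others of its side, in 44 named genes, 19 were set apart, where chance sets apart about 1 in 20 groups. WT 4 accounted for 10 of them and KO 1 for 8, the arrays nearest the Clk1 threshold on each side, and these genes were chosen for large differences, so the cases are not independent. WT 4 stood low on the high side in Prpf39 (6.91), Thoc2 (7.61), Rbm12b2 (8.06), 9530091C08Rik (7.80), Ube2v2 (7.74), Ikzf5 (8.80), Purb (9.91), Zfp654 (7.32), Luc7l3 (9.81) and Meg3 (10.80). KO 1 stood high on the low side in Thoc2 (7.69), Rbm12b2 (7.20), Cfap36 (8.17), Vbp1 (7.40), Purb (9.51) and Luc7l3 (9.40), and in the genes Fetub (11.11) and Gnmt (11.21), made mainly in liver. WT 5 stood low on the low side in Rny1 (9.04).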

How the results depend on the processing

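The count of higher genes, 1091 over all arrays, was 1652 within batch 1, 1818 within KO, 2148 for differences of at least 0.5 and 67 for at least 2, and leaving out 1 array in turn gave 997 to 1581. The count of lower genes, 94 over all arrays, was 809 within batch 1, 607 within KO, 32 within WT, 48 without KO 1 and KO 3, 1435 at 0.5 and 0 at 2. Leaving out 1 array in turn gave 55 to 167, with 55 without KO 3, 147 without WT 3 and 167 without WT 4. Of the counted genes 92.1% were higher, 92.2% after a shift of the arrays to a common median and 91.2% after a repeated quantile normalisation. The interaction of genotype and side, with 0 calls over all arrays, gave 0 to 147 calls when 1 array was left out. Over the low arrays, the relation of Rian to Clk1 changed sign without KO 1 and KO 4 (Pearson -0.84, Spearman -0.20) and without KO 1 and KO 3 (Pearson -0.56, Spearman -0.40), and that of Thoc2 did so in Spearman's rho without KO 1 and KO 4 (-0.40) and in both measures without KO 1 and KO 3 (Pearson -0.58, Spearman -0.80). In these cases the cause was not tested beyond the arrays left out. The count of genotype calls was 0 in limma under every alternative run, and the smallest adjusted p ranged from 0.228 to 1. Pearson's r of Prpf39, 0.84 over the 6 arrays, was 0.21 under both of these omissions, and that of Thoc2, 0.74, was 0.15 without KO 1 and KO 4. Over all alternatives 158 values kept their direction and their side of a test's threshold where there was one, moved by less than the spread between arrays, or, for counts, stayed within 1.5 times, these r values among those that kept their side. No paired analysis was possible because the labels give KO and WT different animal numbers. Signal over background was not available to set a limit for dim probes.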
